A study of Mus musculus with 60 samples.

Results

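Collagens are the main structural proteins of the extracellular matrix. Each molecule is built from alpha chains wound into a triple helix, and each chain has its own Col gene. The genes were taken from both chips by their symbols, as every gene whose single platform symbol has the form Col, a number, the letter a and a number. This gave 42 genes with 82 probe sets, of 18193 genes with a single symbol. Of the 42 genes, 15 had 1 probe set and 27 had over 1, and each gene was represented at a time point by the probe set that was brightest over the 10 pools.

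The animals were wild-type C57BL/6J mice and Mstn-null mice on the same background, which lack myostatin, a secreted member of the TGF-beta family that restrains skeletal muscle growth. A different tissue was collected at each age: the whole embryo at 13.5 d.p.c., the hindquarters of the embryo at 17.5 d.p.c., and the pectoralis muscle at 35 days after birth (d35). At each time point 5 wild-type and 5 Mstn-null pools were measured, and every pool held RNA of 3 animals (15 animals per genotype and time point). The embryo samples hold skin, cartilage, bone and other organs beside muscle, and in such bulk RNA fewer cells of a type and less RNA per cell cannot be told apart.

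The fibrillar chains grouped here (types I, III, V and XXIV) form the tension-bearing fibrils around muscle fibres, in tendon, bone and skin. Chains of cartilage fibrils were grouped with cartilage. Type IV collagen is the network of basement membranes, to which types XV and XVIII bind, and type VII anchors the epidermal basement membrane. Types II, IX, X, XI and XXVII belong to cartilage, type VI forms beaded filaments next to the muscle basement membrane, and fibril-associated collagens decorate fibrils without forming them. TGF-beta signalling is a well-known inducer of fibrillar collagen genes, and the comparison asked how far the collagen chain genes differ between genotypes at each age.

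On every array the values were log2 intensities, and differences were computed as wild-type minus Mstn-null with limma, fitted over 45037 probe sets at each time point. A gene was called at a Storey q under 0.05. Levels are not compared between time points or between probe sets, because tissues were normalised apart and probes differ in brightness. Median correlations of an array with the others of its chip and time point were 0.982 to 0.998, with the exception of the chip B array of wild-type pool 1 at 17.5 d.p.c. (0.952). The muscle fibre markers at d35 had mean levels of 12.9 to 14.5. At 17.5 d.p.c. the liver markers of Mstn-null pool 5 deviated by -3.30 log2 units from the mean of all pools. The targeted gene Mstn was named by 0 probe sets and was not analysed here.

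Few collagen chain genes were called at any age, and in both embryonic tissues few genes of any kind were. In whole embryos limma called 0 of the 42 genes, against 0.324% of all genes (0.302% higher and 0.022% lower in wild-type). In the hindquarters 0 of 42 were called, as were 0% of all genes. At d35 a single gene, Col19a1 (2.38% of the 42), was called, against 5.96% of all genes, and it was lower in wild-type, as were 2.7% of all genes. Over the 82 probe sets the counts were 0, 0 and 3, against 0.54%, 0% and 4.58% of all probe sets. Pools of the genotypes did not overlap for 0, 2 and 0 of the 42 genes (2.02%, 0.561% and 6.53% of all genes) and for 0, 2 and 2 of the 82 probe sets (2.4%, 0.535% and 5.25% of all probe sets). At an unadjusted p under 0.05 the counts were 3, 3 and 5 of 42, against 10%, 3.09% and 20.3% of all genes. Differences were positive for 16, 21 and 21 of the 42 genes, and the corresponding shares over all genes were 42.7%, 51.4% and 44.9%. The median difference over the collagen genes was -0.01, -0.00464 and 0.00563, close to the medians of -0.01, 0.00284 and -0.01 over all genes.

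The precision was high enough to bound most of these differences, as read by the brightest probe set of each gene. At d35, 8 of the 42 genes had a mean level under 6. The RMA processing of the arrays compresses differences at such dim levels, so narrow intervals there bound the measured difference only. The 95% interval lay inside 1.5-fold in either direction for 42 of 42 genes at 13.5 d.p.c., for 37 at 17.5 d.p.c. and for 42 at d35. Inside 2-fold the counts were 42, 40 and 42. The exceptions to the 2-fold limit at 17.5 d.p.c. were the cartilage genes Col2a1 and Col9a1, for which 1 wild-type pool stood far above the rest.

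**Figure D1:**
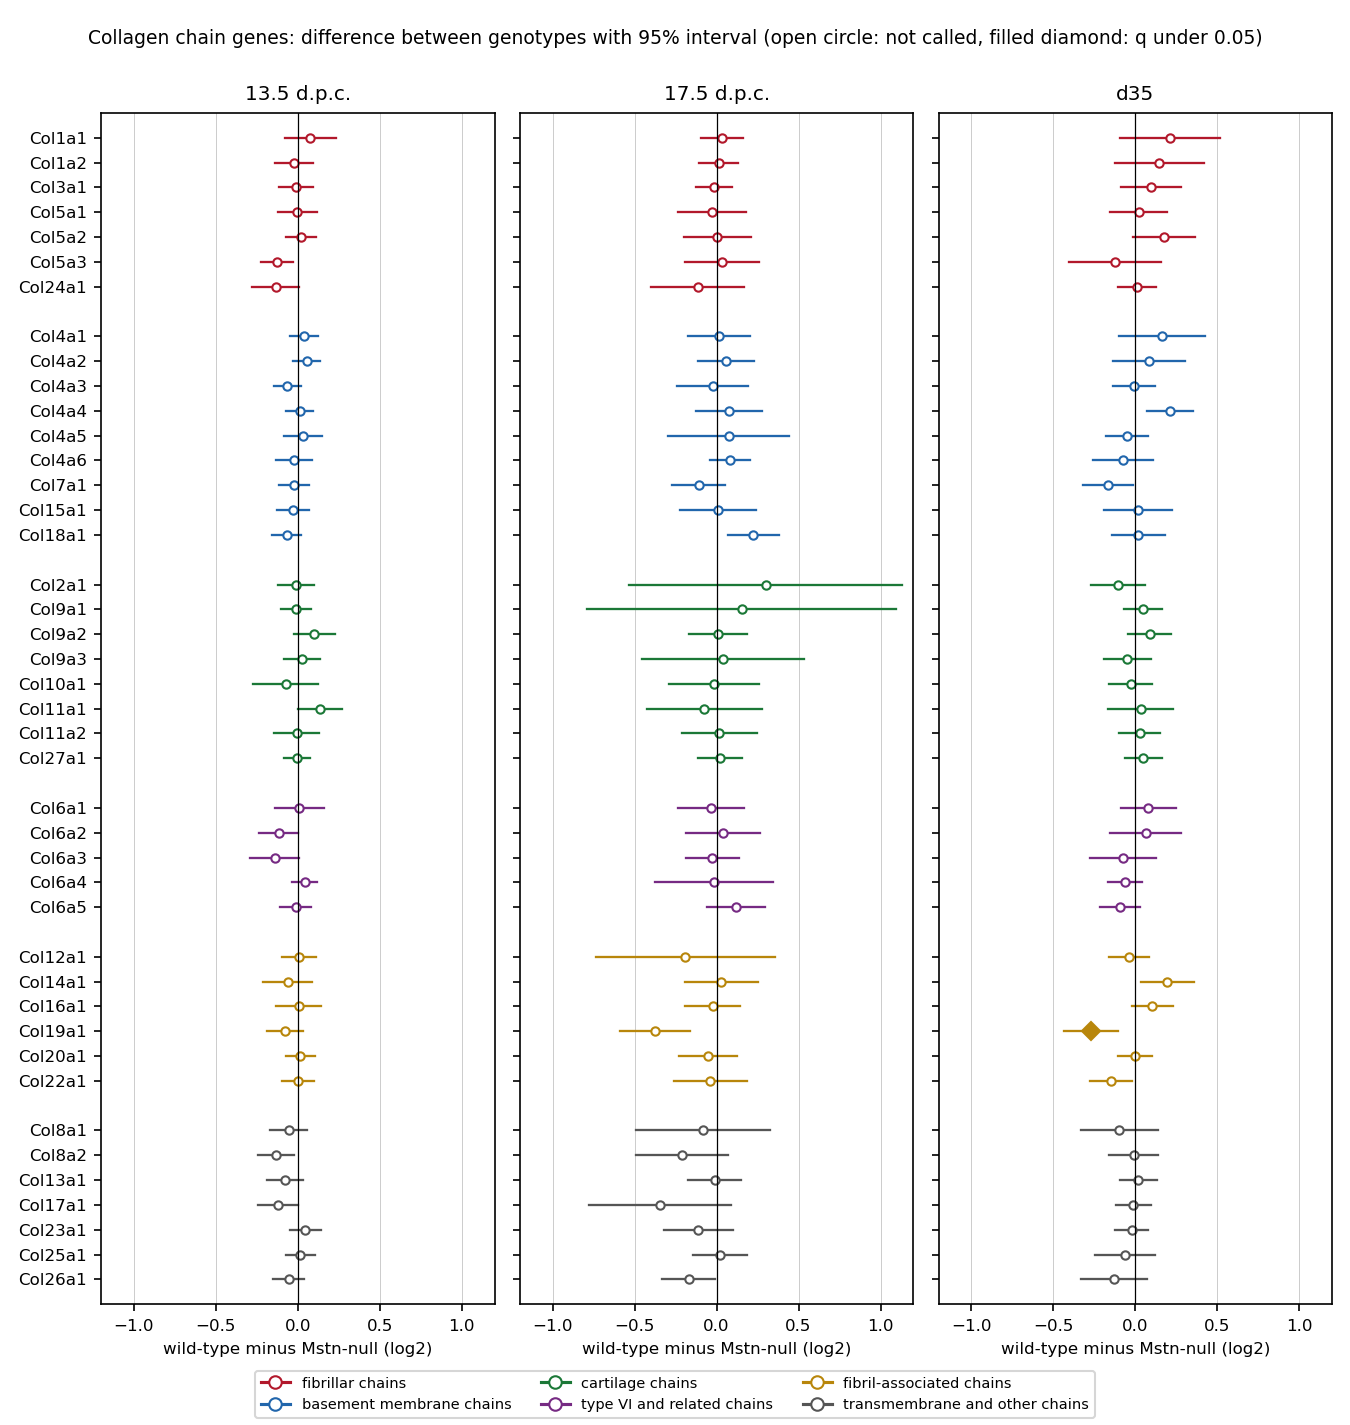
Difference of each of the 42 collagen chain genes (wild-type minus Mstn-null, log2, horizontal axis) at the 3 ages, with bars for the 95% interval and colours for the chain class. Most bars cross 0, the bars of Col2a1 and Col9a1 at 17.5 d.p.c. are the widest, and Col19a1 at d35 (-0.27) is the only filled symbol.

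The 250 bases before the annotated start are shown for 3 genes: Col19a1, the single gene called, and the fibrillar genes Col1a2 and Col3a1. They come from RefSeq (GRCm38.p6), whose promoter table held 33 of the 42 genes. Capitals mark the letters searched on both strands, namely the TATA box letters TATAAA, the CCAAT box, the Sp1-type letters GGGCGG, the Smad-type letters CAGAC, and the Sox-type letters AACAAT.
Col19a1 (chr1:24587438-24587687, minus strand): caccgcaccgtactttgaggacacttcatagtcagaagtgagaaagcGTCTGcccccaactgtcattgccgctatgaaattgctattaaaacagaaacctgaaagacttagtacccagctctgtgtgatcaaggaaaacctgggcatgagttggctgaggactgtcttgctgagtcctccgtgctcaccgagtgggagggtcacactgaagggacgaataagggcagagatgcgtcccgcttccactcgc
Col1a2 (chr6:4505368-4505617, plus strand): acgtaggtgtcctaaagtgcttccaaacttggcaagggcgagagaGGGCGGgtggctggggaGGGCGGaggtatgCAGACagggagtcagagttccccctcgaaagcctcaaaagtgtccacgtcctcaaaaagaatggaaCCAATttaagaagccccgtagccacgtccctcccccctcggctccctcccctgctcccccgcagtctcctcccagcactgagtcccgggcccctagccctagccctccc
Col3a1 (chr1:45311288-45311537, plus strand): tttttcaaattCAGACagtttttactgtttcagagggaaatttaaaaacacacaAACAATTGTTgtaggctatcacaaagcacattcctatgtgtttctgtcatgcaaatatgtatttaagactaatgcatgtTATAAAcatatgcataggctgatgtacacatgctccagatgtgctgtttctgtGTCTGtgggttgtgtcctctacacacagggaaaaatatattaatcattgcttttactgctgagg
The window of Col19a1 held 1 match, CAGAC on the opposite strand, beginning 203 bases before the start. Col1a2 held 4 matches, a CCAAT box, a Smad-type match and a pair of Sp1-type matches. Col3a1 held 5, among them the TATA box letters and a Sox-type match on either strand, which overlap. Over all 32851 windows of the same length, the TATA box letters occurred in 12.4%, the CCAAT box in 33.8%, the Sp1-type letters in 32.7%, the Smad-type letters in 42.2% and the Sox-type letters in 9.42%. In the 36 windows of collagen genes the shares were, in the same order, 13.9%, 36.1%, 58.3%, 41.7% and 2.78%. These are matches of letters, which say nothing on their own about binding.

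Of the 7 fibrillar chains no member was called at any time point. In the 13.5 d.p.c. embryos the median difference of the 7 genes was -0.01, and Col1a1, the alpha 1 chain of type I, differed by 0.08 (95% interval -0.08 to 0.23). Its partner Col1a2 differed by -0.03 (-0.14 to 0.09), and Col3a1, the single chain of type III, by -0.01 (-0.12 to 0.09). The smallest p of the class was that of Col5a3, the third chain of type V, at -0.13 by its brightest probe set (limma, q = 0.220). The mean of both its probe sets differed by -0.05.

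Col5a3 levels at 13.5 d.p.c. were 7.09, 7.29, 7.17, 7.16 and 7.17 in the wild-type pools and 7.39, 7.27, 7.31, 7.31 and 7.23 in the Mstn-null pools. Wild-type pool 2 lay inside the Mstn-null range, so the genotypes overlapped. Col8a2 (type VIII, a network-forming collagen), at -0.13 with q = 0.265, and Col17a1 (a transmembrane collagen of skin), at -0.12 with q = 0.328, were the other genes with an unadjusted p under 0.05. All 3 were lower in wild-type by their brightest probe set. At this age a probe control of RNA integrity also differed on chip B. The signal of the 3' actin probe set exceeded that of the 5' one by 0.290 to 0.318 log2 units on arrays of Mstn-null embryos. On those of wild-type embryos the excess was 0.160 to 0.234. On chip A, which holds Col5a3 and Col17a1, the ranges overlapped (0.201 to 0.346 in Mstn-null and 0.0677 to 0.214 in wild-type). The part of RNA integrity in the differences was not tested.

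In the hindquarters at 17.5 d.p.c. the fibrillar genes had a median difference of 0.00274. Col1a1 read 14.12, 14.11, 14.16, 14.12 and 14.29 in wild-type pools and 14.03, 14.05, 14.16, 14.15 and 14.24 in Mstn-null pools. The ranges overlapped, and the difference was 0.03 (-0.10 to 0.16). Col1a2 and Col3a1 differed by 0.01 and -0.02.

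In d35 pectoralis 6 of the 7 fibrillar differences were positive, with a median of 0.09 (0.04 to 0.15 with any 1 pool left out), and none was called. Col1a1 levels were 12.03, 12.23, 11.91, 12.12 and 11.32 in wild-type pools and 11.94, 11.72, 11.67, 11.76 and 11.46 in Mstn-null pools. Wild-type pool 5 was the lowest of all 10 pools, and 3 of the other wild-type pools lay above the whole Mstn-null range. The difference was 0.21 (95% interval -0.09 to 0.52, q = 0.301). Without wild-type pool 5 it was 0.36 and was called (limma, q = 0.0361), so the absence of a call for this gene depends on 1 pool. The q over the other leave-one-out fits and alternatives reached up to 0.538.

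Col1a2 differed by 0.15 (-0.13 to 0.42) and Col3a1 by 0.09 (-0.09 to 0.28). Col5a2, a type V chain chosen here after its values were seen, differed by 0.18 (-0.01 to 0.36). Col5a3 was the one negative member, at -0.13 (-0.40 to 0.15). Pool 5 was low in both genotypes: the mean deviation of the 7 genes from their average was -0.22 in wild-type pool 5 and -0.29 in Mstn-null pool 5, and between -0.05 and 0.16 in the other 8 pools.

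Some chains that assemble into one molecule moved together across pools. This was examined for 10 pairs of chains at 3 time points, as the correlation over 10 pools of deviations from the mean of each genotype. By Pearson's r, 13 of the 30 relations had a Benjamini-Hochberg adjusted permutation p under 0.05. Of these, Col8a1 with Col8a2 (rho = 0.624, adjusted permutation p = 0.140) and Col9a1 with Col9a2, both at 17.5 d.p.c., did not pass by Spearman's rho. Pairs of unrelated genes were not examined, so no share over other pairs stands beside this count. At d35 Col1a1 and Col1a2 had Pearson's r = 0.952 (permutation p = 9.0e-05, adjusted p = 9.0e-04) and Spearman's rho = 0.964 (p = 5.0e-05, adjusted p = 9.0e-04). Leaving out pool 5 of each genotype, the pools farthest from the median of Col1a1, r was 0.790.

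Col4a1 and Col4a2, which share a bidirectional promoter and form the major type IV network, had r = 0.968 at d35 (permutation p = 6.0e-05, adjusted p = 9.0e-04), rho = 0.964 (p = 6.0e-05, adjusted p = 9.0e-04) and r = 0.977 without the 2 farthest pools. The pair Col6a1 and Col6a2 was correlated at all 3 ages, with r = 0.796, 0.966 and 0.838 (permutation, adjusted p = 0.0197, 6.0e-04 and 0.00915), rho = 0.842, 0.952 and 0.867 (adjusted p = 0.0198, 0.00150 and 0.0135), and r = 0.56, 0.93 and 0.71 without the farthest pools. By contrast Col4a3 and Col4a4, the pair of the specialised network best known from kidney glomeruli, gave r of 0.05, 0.04 and 0.19, whose adjusted permutation p were 0.908, 0.908 and 0.704. Both genes of a pair were read in the same mix of cells. They were also read on the same arrays, except Col4a3 (chip A) and Col4a4 (chip B). The part of arrays and cells in these correlations was not tested.

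**Figure D2:**
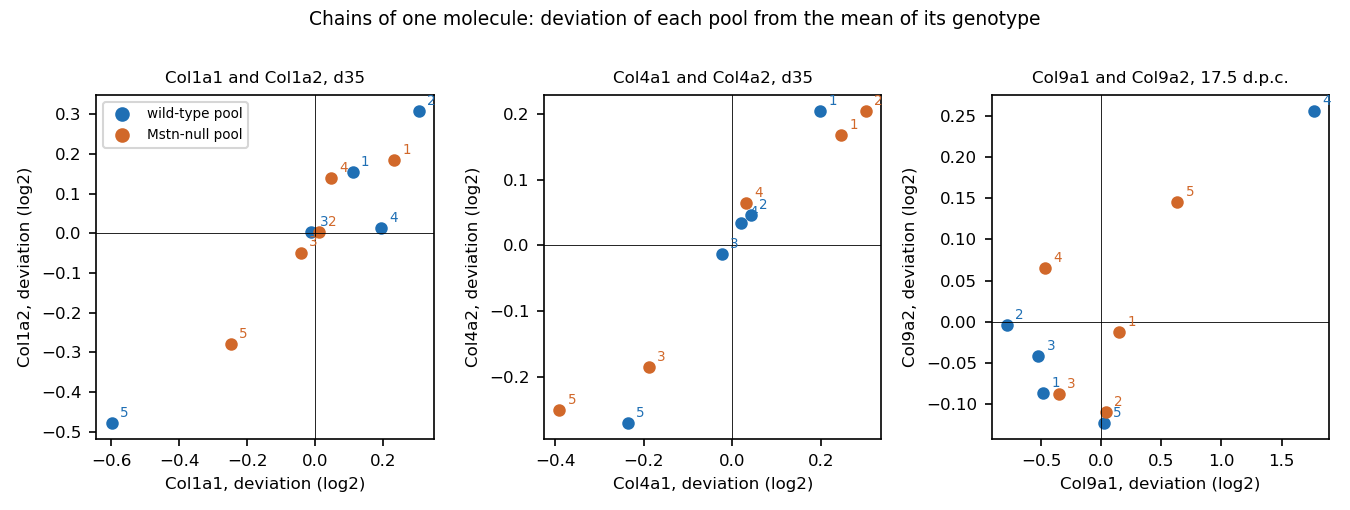
Each point is a pool, numbered by its replicate label, placed by its deviation (log2) from the mean of its genotype for 2 chains of one molecule. Col1a1 and Col1a2 (r = 0.952) and Col4a1 and Col4a2 (r = 0.968) at d35 fall along a line, while Col9a1 and Col9a2 at 17.5 d.p.c. (r = 0.731) are carried by wild-type pool 4 and Mstn-null pool 5.

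The basement membrane chains comprised 9 genes, none of them called by its brightest probe set. Their median difference was -0.02 at 13.5 d.p.c., 0.06 at 17.5 d.p.c. and 0.02 at d35. Col4a1 differed by 0.04, 0.02 and 0.16 at the 3 ages and Col4a2 by 0.05, 0.06 and 0.08, with all 6 intervals spanning 0.

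At 17.5 d.p.c. Col18a1, whose C-terminal fragment is endostatin, was the basement membrane gene that set the genotypes apart most clearly. Its levels were 10.78, 10.70, 10.72, 10.96 and 10.74 in wild-type pools and 10.67, 10.56, 10.67, 10.47 and 10.43 in Mstn-null pools. Every wild-type pool lay above every Mstn-null pool. The difference was 0.22 (95% interval 0.07 to 0.38), but over all probe sets its q was 1 and it was not called. With Col19a1 it made 2 of 42 collagen genes whose pools did not overlap at this age, against 0.561% of all genes. A second probe set of Col18a1 differed by 0.27 with overlapping pools. In whole embryos the difference was -0.07 and in d35 muscle 0.02.

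At d35 Col4a4, picked after its values were seen, had levels of 7.47, 7.32, 7.21, 7.19 and 7.20 in wild-type pools and 7.21, 7.08, 7.07, 6.95 and 7.03 in Mstn-null pools. A single Mstn-null pool, pool 1, reached into the wild-type range. The difference of 0.21 (0.07 to 0.35) had q = 0.0665, and it was called in the fit without dim probe sets (limma, q = 0.0475) and in that with the replicate block (q = 0.0397). No other alternative called Col4a4, the mean of its probe sets among them. Col7a1, chosen in the same way, differed by -0.17 (q = 0.151).

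Col4a5, a chain of the type IV network altered in Alport syndrome, gave different answers from its 2 probe sets at d35. The brighter one (1425475_at) read 5.98, 5.95, 6.02, 6.19 and 6.01 in wild-type pools and 6.07, 5.95, 6.14, 6.08 and 6.19 in Mstn-null pools, a difference of -0.05 (q = 0.449). The dimmer one (1425476_at) read 5.60, 5.33, 5.52, 5.35 and 5.51 against 5.20, 5.10, 5.08, 5.22 and 5.22. There the genotypes did not overlap, and the difference of 0.30 was called (limma, q = 0.0132, and q of 0.00913 to 0.0498 with any 1 pool left out). The mean of both probe sets differed by 0.12 (q = 0.0886). The direction of Col4a5 at d35 is therefore uncertain.

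The 8 cartilage chains had median differences of -0.00535, 0.02 and 0.03 at the 3 ages, and none was called. In whole embryos, where the limb and axial cartilages are being laid down, Col2a1, the chain of the main cartilage fibril, differed by -0.01 (95% interval -0.12 to 0.10), Col9a1 by -0.01 (-0.11 to 0.08) and Col11a1, a chain of the type XI fibril core, by 0.13 (limma, q = 0.340).

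At 17.5 d.p.c. the class varied widely between pools. Col2a1 levels were 9.90, 9.86, 9.91, 11.97 and 10.24 in wild-type pools and 10.09, 9.90, 9.65, 10.01 and 10.73 in Mstn-null pools. Wild-type pool 4 stood well above the other 9 pools, among which Mstn-null pool 5 was highest. The difference was 0.30 (-0.53 to 1.13), and without wild-type pool 4 it was -0.10. Col9a1 read 10.78 in the same pool and 8.22 to 9.03 in the other wild-type pools, against 8.39 to 9.49 in Mstn-null pools, for a difference of 0.15 (-0.79 to 1.09) and, without that pool, of -0.29.

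Wild-type pool 4 was the highest pool for 6 of the 8 genes, the exceptions being Col11a1 and Col27a1. Averaged over the 8 genes, wild-type pool 4 deviated by 0.71 from the mean, Mstn-null pool 5 by 0.30 and the other 8 pools by -0.26 to 0.06. Cartilage markers outside the collagens (7 genes, 0 of 7 called) deviated by 0.65 in wild-type pool 4 and by 0.26 in Mstn-null pool 5. With wild-type pool 4, 6 of 8 cartilage differences were positive, and without it 1 of 8 (median -0.10). Without wild-type pool 1, whose chip B array stood apart, 8 of 8 were positive (median 0.05), as they were without that pool and Mstn-null pool 5 together (median 0.11). Col9a1 and Col9a3 had r = 0.947 over the pools (permutation p = 3.6e-04, adjusted p = 0.00270), rho = 0.802 (adjusted p = 0.0284) and r = 0.681 without both pools. Col9a1 and Col9a2 fell from r = 0.731 (permutation p = 0.0216, adjusted p = 0.0498, rho = 0.273 with adjusted p = 0.674) to r = -0.42 when those 2 pools were left out, so the relation rests on them.

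**Figure D3:**
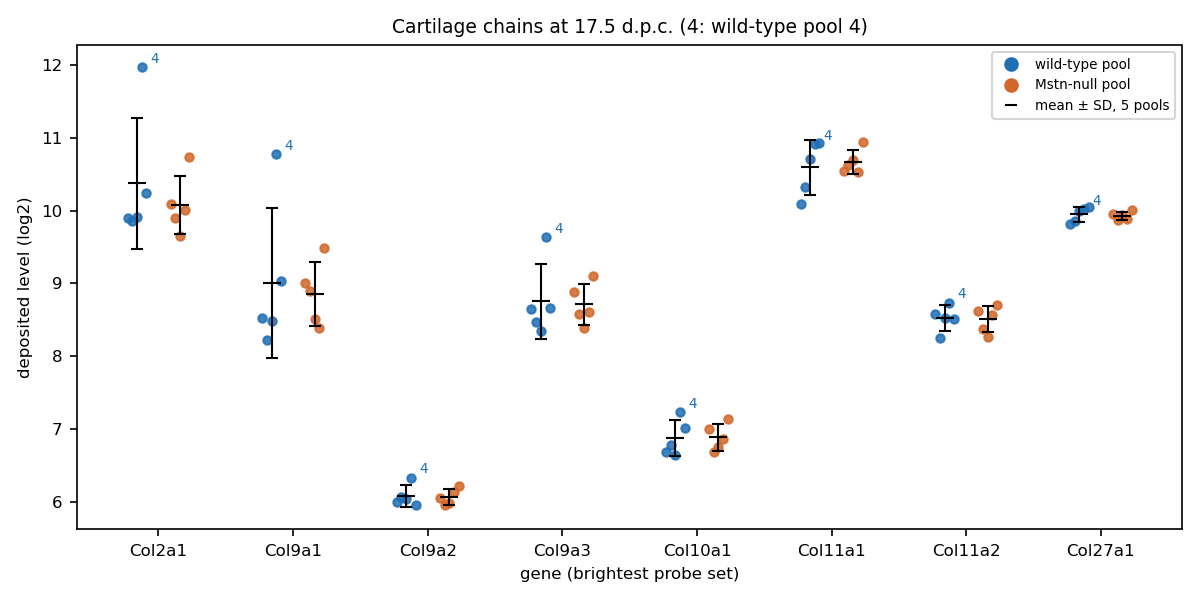
Levels (log2, vertical axis) of the 8 cartilage chains in each pool at 17.5 d.p.c., with the mean ± SD of 5 pools per genotype. Wild-type pool 4, marked 4, lies above all other pools for Col2a1 (11.97), Col9a1 (10.78), Col9a2, Col9a3, Col10a1 and Col11a2.

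At d35, where the pectoralis holds little cartilage, Col2a1 differed by -0.11 (-0.27 to 0.06), and the 8 intervals all lay inside 1.5-fold. The cartilage markers had mean levels of 4.26 to 6.99 in that muscle, near the dim end of the values, and 0 of 7 were called.

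Type VI collagen lies next to the muscle basement membrane, and its loss causes muscular dystrophy in humans and mice. Its 5 measured genes had median differences of -0.01, -0.01 and -0.06, and none was called. In whole embryos Col6a2 and Col6a3 differed by -0.12 and -0.14, with limma q of 0.335 and 0.356. In d35 muscle Col6a1 levels were 10.86, 10.80, 10.70, 10.74 and 10.45 in wild-type pools and 10.78, 10.63, 10.53, 10.69 and 10.53 in Mstn-null pools. They overlapped throughout, at a difference of 0.08 (-0.09 to 0.25). Col6a2 differed by 0.06 and Col6a3 by -0.07.

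Among the 6 fibril-associated chains Col19a1 was the exception. Type XIX collagen was first found in a rhabdomyosarcoma cell line and is made by embryonic muscle. Its brightest probe set (1456953_at, chip B) read 7.73, 7.99, 8.09, 8.07 and 8.15 in the wild-type pools of 17.5 d.p.c. hindquarters and 8.20, 8.20, 8.53, 8.47 and 8.52 in Mstn-null ones. Every wild-type pool was below every Mstn-null pool. The difference was -0.38 (95% interval -0.59 to -0.16) and had the smallest unadjusted p among the 42 genes, yet its q over all probe sets was 1. Wild-type pool 1, whose chip B array stood apart, was the lowest pool, and without it the difference was -0.31. Leaving out Mstn-null pool 5 as well, it was -0.27.

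In d35 pectoralis the same probe set read 5.63, 5.48, 5.60, 5.54 and 5.25 in wild-type pools and 5.63, 5.92, 5.82, 5.75 and 5.73 in Mstn-null pools. Only Mstn-null pool 1 fell within the wild-type range. The difference of -0.27 ± 0.08 (SE, n = 5 pools per genotype) was called with q = 0.0473, or 0.829-fold in wild-type. It sits at the threshold: q was 0.0735 with Benjamini-Hochberg adjustment, and with 1 pool left out it was 0.0440 to 0.105, under 0.05 in 2 of 10 such fits (without pool 1 of either genotype).

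A dimmer probe set of Col19a1 (1421698_a_at, chip A) separated the genotypes at d35 in full. It read 4.79, 4.61, 4.64, 4.67 and 4.76 in wild-type pools and 5.11, 4.91, 4.96, 5.11 and 5.38 in Mstn-null pools, with no overlap. The difference was -0.40 (limma, q = 0.0111) and was called in 10 of 10 fits with 1 pool left out (q of 0.0101 to 0.0416). At 17.5 d.p.c. this probe set differed by -0.46 (95% interval -0.78 to -0.14) with overlapping pools. The third one (1430676_at) differed by 0.10 at 17.5 d.p.c. and by -0.15 (q = 0.215) at d35, so it gave no call. In whole embryos the 3 probe sets differed by -0.08, -0.13 and -0.02. All these levels at d35 lay low in the range of the arrays, from 2.78 to 15.3.

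**Figure D4:**
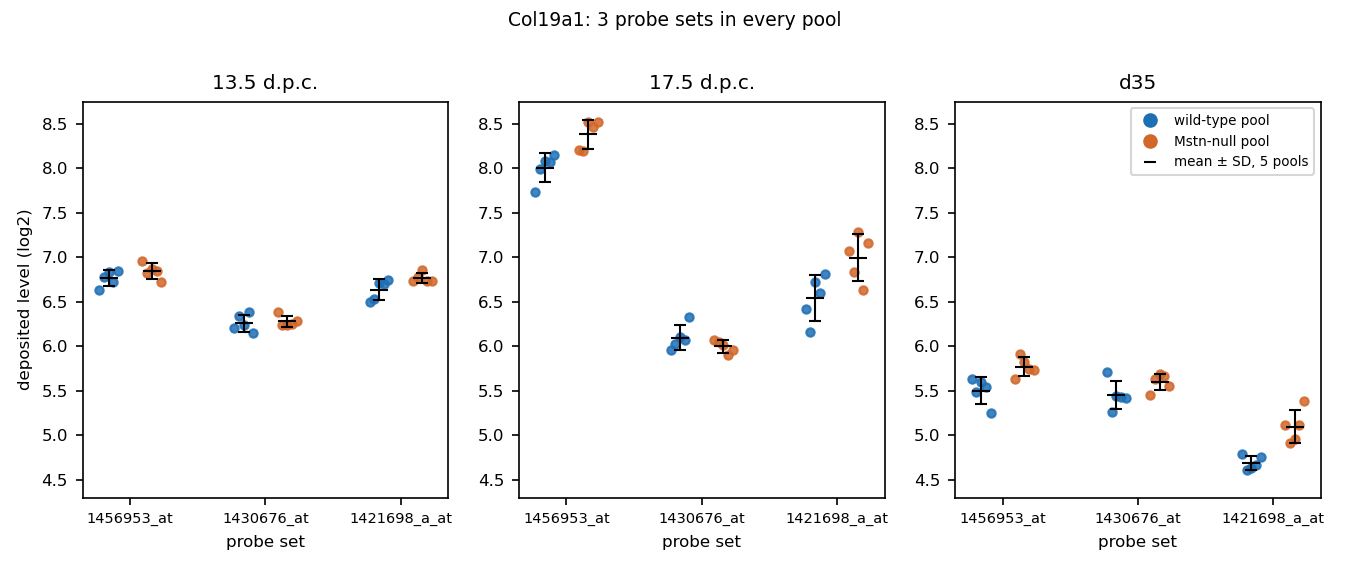
Levels (log2, vertical axis) of the 3 probe sets of Col19a1 in each wild-type and Mstn-null pool, with the mean ± SD of 5 pools, in 3 panels by age. At 17.5 d.p.c. 1456953_at and at d35 1421698_a_at show no overlap between genotypes, with wild-type lower (-0.38 and -0.40), and 1430676_at shows overlap at every age.

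The remaining fibril-associated chains gave smaller values. At d35 Col14a1, which binds type I fibrils, read 8.44, 8.33, 8.21, 8.39 and 8.09 in wild-type pools and 8.08, 8.01, 7.99, 8.29 and 8.11 in Mstn-null pools. The groups overlapped through wild-type pool 5 and Mstn-null pool 4. The difference of 0.19 (0.03 to 0.36) had q = 0.122. The other 2 probe sets of Col14a1 differed by 0.04 and -0.00892, and the mean of all 3 by 0.07. Col22a1, a collagen of the myotendinous junction that was picked after its values were seen, differed by -0.15 (q = 0.137) by its brightest probe set. Its other probe sets are not given here. Col12a1 at 17.5 d.p.c. differed by -0.19, and by 0.06 without wild-type pool 1, whose level of 9.05 on the chip B array stood below 9.90 to 10.67 in the other 9 pools.

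The 7 transmembrane and other chains had median differences of -0.06, -0.11 and -0.02, with 5, 6 and 6 negative members. None was called. At 17.5 d.p.c. Col26a1 differed by -0.17 (95% interval -0.33 to -0.00914) by its brightest probe set, by 0.13 (-0.10 to 0.36) by its other probe set and by -0.02 by the mean of both. Col17a1 differed by -0.35 (-0.78 to 0.09). Wild-type levels of Col17a1 were 8.37, 7.97, 7.42, 7.98 and 8.01 and Mstn-null levels 8.47, 8.28, 7.79, 8.14 and 8.80. Epidermis markers, of which type XVII is a neighbour in the skin, ranged in mean deviation from -1.94 to 1.08 in wild-type pools and from -1.08 to 1.27 in Mstn-null pools, and their part in this value was not tested. Without wild-type pool 1 the median of the class was -0.02, and the number of positive differences over all 42 collagen genes at 17.5 d.p.c. went from 21 to 31.

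A limma fit of all 30 pools tested whether a genotype difference changed between ages. None of the 82 collagen probe sets had a Benjamini-Hochberg adjusted p under 0.05 in any of the 3 contrasts, and the smallest adjusted p were 0.535 (17.5 against 13.5 d.p.c.), 0.302 (d35 against 17.5 d.p.c.) and 0.309 (d35 against 13.5 d.p.c.). Over all probe sets 0%, 0.524% and 0.986% passed. At an unadjusted p under 0.05 there were 5, 8 and 2 collagen probe sets.

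Genes that process, bind or break down collagen included several called at d35. Of 27 measured genes for collagen synthesis and crosslinking 4 rose in wild-type relative to Mstn-null and 0 fell, against 3.26% and 2.7% of all genes in those directions. They were Pcolce2 (0.42, q = 0.0181) and Pcolce (0.28, q = 0.0426), enhancers of the proteinase that trims procollagen, P4ha2 (0.31, q = 0.0401), a prolyl hydroxylase subunit, and Plod1 (0.23, q = 0.0398), a lysyl hydroxylase. The list had a median difference of 0.09. This and the other gene lists were chosen with earlier results of these data known, so their counts are no test of an excess over all genes.

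The fibril-binding matrix list had 2 of 17 genes called, both higher in wild-type. Ogn (osteoglycin, a small leucine-rich proteoglycan) read 8.26, 8.32, 8.35, 8.39 and 8.09 in wild-type pools and 7.52, 7.58, 7.65, 7.82 and 7.83 in Mstn-null pools. The genotypes did not overlap, at a difference of 0.60 (limma, q = 8.12e-04). Fn1 (fibronectin, on which collagen fibrils are assembled) differed by 0.44 (q = 0.0391). Agrn (agrin, 0.21, q = 0.0436) was the 1 of 11 basement membrane partners called, and Mmp9 (a gelatinase, 0.23, q = 0.0216) the 1 of 11 breakdown genes. Of 7 collagen receptors 0 were called. In whole embryos and hindquarters 0 genes of these 5 lists were called by limma.

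**Figure D5:**
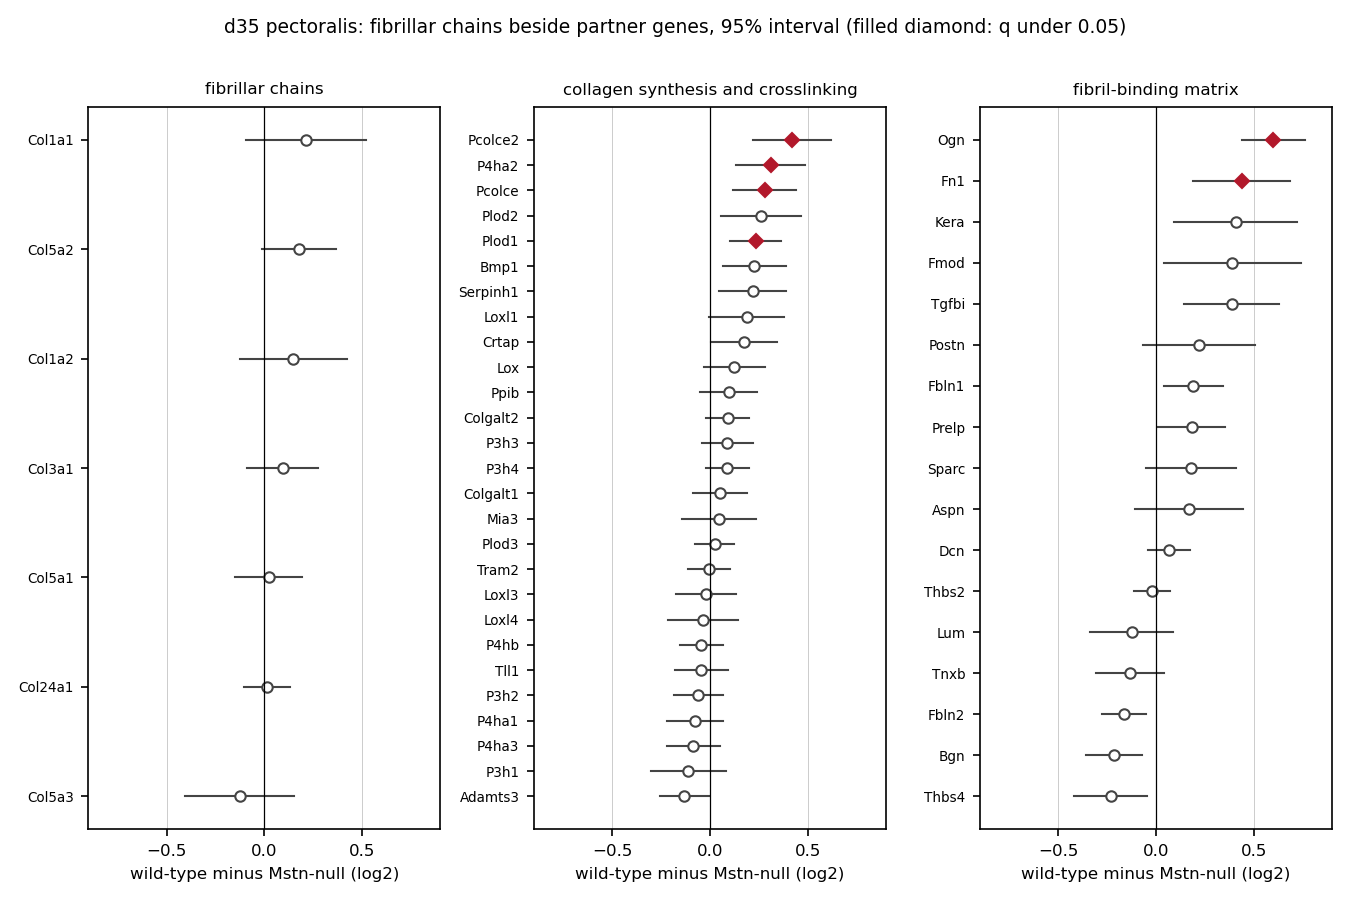
Differences (wild-type minus Mstn-null, log2, horizontal axis) with 95% intervals in d35 pectoralis for the 7 fibrillar chains, 27 genes of collagen synthesis and crosslinking and 17 genes of fibril-binding matrix. Filled diamonds, at a q under 0.05, occur in the partner lists (4 and 2 genes) and not among the chains, whose intervals all cross 0.

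Some markers of other cells were also called at d35, all of them in the direction in which 3.26% of all genes had a call. Whether they moved jointly with the collagen partner genes was not tested. Fibroblast markers were called higher in wild-type for 2 of 5 genes (Dpt by 0.43 and Pi16 by 0.37), endothelial markers for 3 of 6 (Tie1 by 0.37, Tek by 0.33 and Kdr by 0.20) and smooth muscle markers for 2 of 4 (Tagln by 0.42 and Myh11 by 0.32). Of 4 adipocyte markers 1 was called (Cidec, 0.98), as was 1 of 4 bone markers (Alpl, 0.34). No gene of the macrophage (5), tendon (4), Schwann cell (2), cartilage (7), epidermis (5), liver (5), proliferation (3) or muscle fibre (6) markers was called. All 5 macrophage differences were positive (median 0.25) and all 6 muscle fibre differences negative (median -0.11). The mean deviation of the fibroblast markers ran from -0.08 to 0.25 in wild-type pools and from -0.30 to 0.00985 in Mstn-null pools, lowest in pool 5 of either genotype, as for the fibrillar chains. The endothelial markers ran from 0.00339 to 0.23 and from -0.26 to -0.04 without overlap. The 3' excess of the actin control on chip A was 0.134 to 0.579 in wild-type pools and 0.0599 to 0.211 in Mstn-null pools at this age. On chip B it was 0.208 to 0.584 in wild-type pools and 0.1555 to 0.2776 in Mstn-null pools. The part of these cells and of RNA quality in the collagen and partner values was not tested.

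All 42 genes have a known chromosome, and 7 lie on chromosome 1 with Mstn. Col5a2 and Col3a1 are 14 and 15 measured genes away from Mstn, Col19a1 is 113 away, and Col9a1, Col4a4, Col4a3 and Col6a3 are 114, 191, 192 and 262 away. Of these 7, only Col19a1 was called at any age in the fit reported here, and in the alternatives without dim probe sets and with the replicate block Col4a4 was called at d35 in its place.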

How the data were processed

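RNA of 30 pools was hybridised to 2 mouse expression chips (A and B), giving 60 arrays. The authors deposited RMA values on the log2 scale, made with the affy package (version not given in the sources used here), with background correction, quantile normalisation and summary of probes per probe set. RMA compresses differences at dim probes, and no detection calls were used. Both chips of a pool were joined by replicate number and 45037 probe sets were tested without controls, 34945 of them with 1 symbol, 932 with several and 9160 with none. No filter on low values was applied, so all 42 genes were tested at each age; at d35, 8 of them had a mean under 6. The number of arrays limits the precision.

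Each time point was fitted with limma 3.58.1 in R 4.3.3, after the study's methods, with genotype as the only term and Storey q-values over all probe sets. The fits were tested on simulated data. Correlations used 100000 permutations. Named were the genes called, the 3 brightest of each class, the 3 smallest p in each direction where none was called, genes whose probe sets differ in call, and up to 4 called genes of each other list. Members, lists and promoter letters were chosen with earlier results of these data known. Alternatives were Benjamini-Hochberg adjustment, each chip on its own, removal of dim probe sets, a further quantile normalisation, trend and robust moderation, 1 fit of all pools, a replicate block, other choices of probe set and leaving out pools. P-values of the limma fits weigh the genotype difference against the spread between pools, and those of the correlations come from permuting the pools. Triplet repeats of the proteins were not analysed here. Figures were drawn with matplotlib 3.10.9.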

Additional observations from a re-analysis of the deposited data

Results flagged for a closer look

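Among the named genes, 1 pool lay far from the other 4 in 8 of 130 groups of 5 pools (6.15%), where chance gives about 1 in 20 groups (5%). Over all 42 genes it did so in 13 of 252 groups (5.16%), and the 8 are given here. At 13.5 d.p.c. these were Col17a1 in wild-type pool 2 (6.84, others 7.03 to 7.06), Col1a2 in Mstn-null pool 1 (13.35, others 13.11 to 13.17) and Col9a2 in Mstn-null pool 4 (7.52, others 7.76 to 7.84). At 17.5 d.p.c. they were Col2a1 in wild-type pool 4 (11.97, others 9.86 to 10.24), and Col1a1 and Col6a3 in wild-type pool 5 (14.29 against 14.11 to 14.16, and 13.10 against 12.75 to 12.84). At d35 they were Col12a1 in Mstn-null pool 3 (7.90, others 7.68 to 7.71) and Col6a2 in wild-type pool 5 (11.12, others 11.44 to 11.56). The genotype difference did not pass a test of change between ages for any collagen probe set.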

How the results depend on the processing

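The count of collagen genes called was 0 in both embryonic tissues under every alternative run. At d35 it was 0 with Benjamini-Hochberg adjustment, with each chip on its own and with a further quantile normalisation, and 0 to 1 with 1 pool left out. Where it stayed at 1, the gene was Col19a1 in 1 fit of all pools, with trend and robust moderation and with the other choices of probe set. The same gene was called without pool 1 of either genotype. In its place Col4a4 (0.21) was called without dim probe sets (q = 0.0475) and with the replicate block (q = 0.0397), and Col1a1 (0.36) without wild-type pool 5. The q of Col19a1 was 0.0735 with Benjamini-Hochberg adjustment, 0.0533 with each chip on its own, 0.0534 after the further normalisation, 0.0618 with the replicate block, 0.0404 in 1 fit of all pools and 0.00814 for the mean of its probe sets, and the removal of dim probe sets left it out. The reported fit did not pair wild-type and Mstn-null pools by replicate number. Deviations of same-numbered pools correlated at -0.10 to 0.08, -0.20 to 0.48 and -0.17 to 0.14 at the 3 ages, and 1, 3 and 1 of 5 pools correlated best with their own number. At 17.5 d.p.c. these were pools 1, 3 and 5, at 0.30, 0.39 and 0.48.

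Among class medians, that of the fibril-associated chains at d35 became 0.0239 with the mean of all probe sets, that of the transmembrane and other chains at 17.5 d.p.c. became 0.013 without wild-type pool 1 and Mstn-null pool 5 (an alternative chosen after seeing the data), and that of the basement membrane chains at 13.5 d.p.c. ran from -0.0482 to 0.0111 with 1 pool left out. Of the 18 class medians 10 changed sign when 1 pool was left out, among them the cartilage chains at 17.5 d.p.c. (-0.103 to 0.0634) and the fibrillar chains at 13.5 d.p.c. (-0.0417 to 0.0148). With the mean of all probe sets Col23a1 at d35 (0.05), Col26a1 at 13.5 d.p.c. (0.03) and Col4a5 at d35 (0.12) changed sign, by more than the SD between their pools. Other named genes changed sign by smaller shifts, among them Col25a1 at 13.5 d.p.c. (-0.0326) and 17.5 d.p.c. (-0.075) and Col9a3 at 13.5 d.p.c. (-0.0301). Col5a3 at 13.5 d.p.c. (-0.05), Col26a1 at 17.5 d.p.c. (-0.02), Col19a1 at 17.5 d.p.c. (-0.24) and Col14a1 at d35 (0.07) kept theirs at smaller values. The causes were not tested.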
